A study of Mus musculus with 12 samples.

Results

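Genes of the carnitine shuttle and of carnitine synthesis were followed in liver RNA of fasted mice with a liver knockout of Cpt2, or of Atf3 and Cpt2. They were chosen by name, by the pathway they belong to, with earlier results of these data known. Cpt1a, Cpt1b, Slc25a20 and Cpt2 belong to the shuttle. Crat is the carnitine acetyltransferase gene and Slc22a5 the carnitine transporter gene, and Aldh9a1, Bbox1 and Tmlhe belong to carnitine synthesis. Of these 9 genes, 8 had a row among the 56748 genes counted, and Tmlhe was not analysed here. In livers with the knockout of Cpt2 alone, the transcripts of Crat and Slc22a5 rose 3.10-fold and 3.15-fold over the controls (4 livers per genotype) and Cpt1b rose 7.41-fold from a very low level, while Cpt2 fell to 0.540 of the control level. In livers labelled as lacking Atf3 and Cpt2, Crat, Slc22a5 and Cpt1b rose 2.03-fold, 2.11-fold and 5.22-fold and Cpt2 fell to 0.505, though the call of Cpt1b was lost in 5 of 13 other settings. In the knockout of Cpt2 alone, Cpt1a and Slc25a20 rose less and Bbox1 fell, by changes whose calls did not survive many of the other settings, and Aldh9a1 did not pass the test.

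RNA-seq was done on whole liver of 12 mice after a 24 h fast. The 4 livers called DKO were labelled ATF3;CPT2 liver-specific double KO, the 4 called SKO were labelled CPT2 liver-specific KO, and the 4 called WT were labelled CPT1A/1B/2 triple floxed control. The study's text describes the parent lines as floxed alleles crossed to an albumin-Cre transgene, which acts in hepatocytes. Which other cells of the liver keep the genes was not tested. The labels give no age, sex or strain for a liver. The Atf3-floxed line was derived in C57BL/6N mice. Where the study checks the double knockout by RT-qPCR, its control mice are described as carrying floxed Atf3 and floxed Cpt2, which is not the control genotype on these labels. As the labelled controls carry floxed Cpt1a and Cpt1b and the labels of the knockouts do not name these alleles, knockout and floxed alleles cannot be told apart for Cpt1a and Cpt1b.

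Carnitine carries long-chain fatty acids into mitochondria, where they are oxidized. Carnitine palmitoyltransferase 1, encoded by Cpt1a in liver and by Cpt1b mainly in muscle, joins the fatty acyl group to carnitine at the outer mitochondrial membrane. The translocase encoded by Slc25a20 exchanges the acylcarnitine for free carnitine across the inner membrane, and carnitine palmitoyltransferase 2, encoded by Cpt2, returns the acyl group to coenzyme A on the matrix side. Slc22a5 encodes OCTN2, which takes carnitine up from the blood, and Crat encodes an enzyme that moves short acyl groups between coenzyme A and carnitine. Carnitine is made from trimethyllysine in steps that use the products of Tmlhe, Aldh9a1 and, last, Bbox1, the gamma-butyrobetaine hydroxylase. Fasting raises hepatic fatty acid oxidation, and PPARalpha, encoded by Ppara, is the fasting-activated receptor that drives many of these genes.

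The promoter windows of Cpt1a, Slc22a5 and Bbox1 are shown because these genes stand for the liver enzyme that starts the shuttle, the gene with the largest rise for which a window was at hand, and the synthesis gene that fell. Each window runs from 250 bases before to 50 bases after the start given by RefSeq on GRCm38.p6, written 5′ to 3′ on the gene's strand. Windows were at hand for 6 of the 8 genes, not for Crat or Cpt1b. Capitals mark the only match to AGGTCA, which lies on the other strand of the Cpt1a window and so reads TGACCT, beginning 94 bases before the start.
Cpt1a, chr19:3323051-3323350, plus strand: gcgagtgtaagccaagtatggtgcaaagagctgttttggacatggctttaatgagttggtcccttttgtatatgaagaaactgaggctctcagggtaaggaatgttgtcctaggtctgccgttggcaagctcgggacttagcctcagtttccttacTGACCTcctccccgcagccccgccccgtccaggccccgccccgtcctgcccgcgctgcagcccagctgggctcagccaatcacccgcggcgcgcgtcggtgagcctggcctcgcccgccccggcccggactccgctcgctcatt
Slc22a5, chr11:53891654-53891953, minus strand: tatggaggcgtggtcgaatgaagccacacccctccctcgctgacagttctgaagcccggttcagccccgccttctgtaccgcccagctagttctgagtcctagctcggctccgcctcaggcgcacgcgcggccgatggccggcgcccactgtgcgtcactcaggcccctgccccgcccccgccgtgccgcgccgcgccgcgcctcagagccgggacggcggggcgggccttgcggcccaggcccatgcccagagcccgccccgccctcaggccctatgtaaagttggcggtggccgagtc
Bbox1, chr2:110305676-110305975, minus strand: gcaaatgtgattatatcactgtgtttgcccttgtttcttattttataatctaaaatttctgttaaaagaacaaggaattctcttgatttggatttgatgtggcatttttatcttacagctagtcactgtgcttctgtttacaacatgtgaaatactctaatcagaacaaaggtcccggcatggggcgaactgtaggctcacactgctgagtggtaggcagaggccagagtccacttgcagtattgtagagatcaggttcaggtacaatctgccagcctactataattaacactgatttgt
Exact letters were searched on both strands. AGGTCANAGGTCA, the direct repeat bound by PPARalpha with its partner RXR, was found in none of the 6 windows and in 0.0396% of all 32851 windows of that length. Its single repeat unit AGGTCA, searched after the full repeat had given no match and contained in it, was found in the Cpt1a window only and in 16.3% of all windows. TGACGTCA (the cyclic AMP response element, in 1.79% of all windows), TGANTCA (AP-1, in 7.81%) and TGATGNAA (the C/EBP-ATF composite element, in 3.97%) were in none of the 6. A missing match says only that these letters are not in these windows. The share of G and C was 72.7% in the Slc22a5 window, 62.3% in Cpt1a, 59.0% in Aldh9a1, 58.0% in Slc25a20, 57.3% in Cpt2 and 39.3% in Bbox1, against a median of 52.7% over all windows.

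Between 14710304 and 20030055 reads were counted on genes per liver. Values are given as CPM, counts scaled to library size with edgeR's TMM factors over the 12 livers, where a count of 0 allows up to 3 counts by chance. SKO replicate 3 and DKO replicate 4 had 18063 and 20855 Xist counts with 2 and 0 counts on 4 Y-linked genes, while the other 10 livers had at most 19 Xist counts and 2741 to 4294 on the Y-linked genes, although the study describes males for its RNA-seq. DKO replicate 4 also had 5 counts of Atf3, against 164 to 265 in the other DKO, 259 to 1056 in the SKO and 17 to 39 in the WT livers. In CPM, Atf3 was at 7.91, 10.8, 13.5 and 0.266 in DKO livers, 14.5 to 54.0 in SKO livers and 1.11 to 2.14 in WT livers, so that 3 of the 4 DKO livers were above every WT liver and all 4 were below every SKO liver. The count covers the whole gene, so reads of exons left on a deleted allele or of cells without Cre were not separated. In DKO replicate 4 the level of the hepatocyte marker Alb was 74165 CPM, against 24688 to 28454 in the other DKO livers and 51850 to 65151 in WT livers. The summed level of 6 hepatocyte markers was 72552 to 90594 CPM in WT, 38893 to 68962 in SKO livers and 40462 to 92337 in DKO livers. Of these 6 markers, 3 fell in SKO and 1 fell in DKO against WT, where 15.4 and 4.39% of all genes tested fell. Summed levels of 4 cholangiocyte markers were 6.37 to 12.0 CPM in WT livers, 2.55 to 3.63 in SKO livers and 2.57 to 4.42 in DKO livers, with 1 marker lower in each knockout. Of 5 erythroid markers 2 rose and 1 fell in SKO and 1 fell in DKO livers, and of 6 macrophage markers 1 rose in SKO and 1 fell in DKO livers. The part of these shifts in the results below was not tested. In whole liver, fewer cells of a type and less RNA per cell cannot be told apart. All 12 livers are kept unless another set is named.

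Genotypes were compared with edgeR's quasi-likelihood test within the 8 livers concerned, with Benjamini-Hochberg adjustment across every gene tested and a threshold of 0.05. Of the 8 genes, 5 rose and 2 fell in SKO against WT livers, where 32.1% of the 14261 genes tested passed (16.7% higher and 15.4% lower). In DKO against WT livers 3 rose and 1 fell, where 10.5% of 14448 genes passed (6.06% higher and 4.39% lower). That share rests on 1510 genes, a count that ran from 244 without WT replicate 2 to 5253 without DKO replicate 4, and 3 to 6 of the 8 passed with 1 liver left out. The median log2 fold change of the 8 was 0.46 in SKO and 0.26 in DKO against WT, beside 0.031 and 0.030 over all genes tested. The ranges of the 4 livers did not overlap for 5 genes upward and 2 downward in SKO against WT (17.2 and 16.1% of all genes tested), and for 3 upward and 1 downward in DKO against WT (7.72 and 9.05%). Both comparisons share the 4 WT livers, so they are not independent of each other. The plot of CPM by liver shows the 8 genes in every animal.

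**Figure D1:**
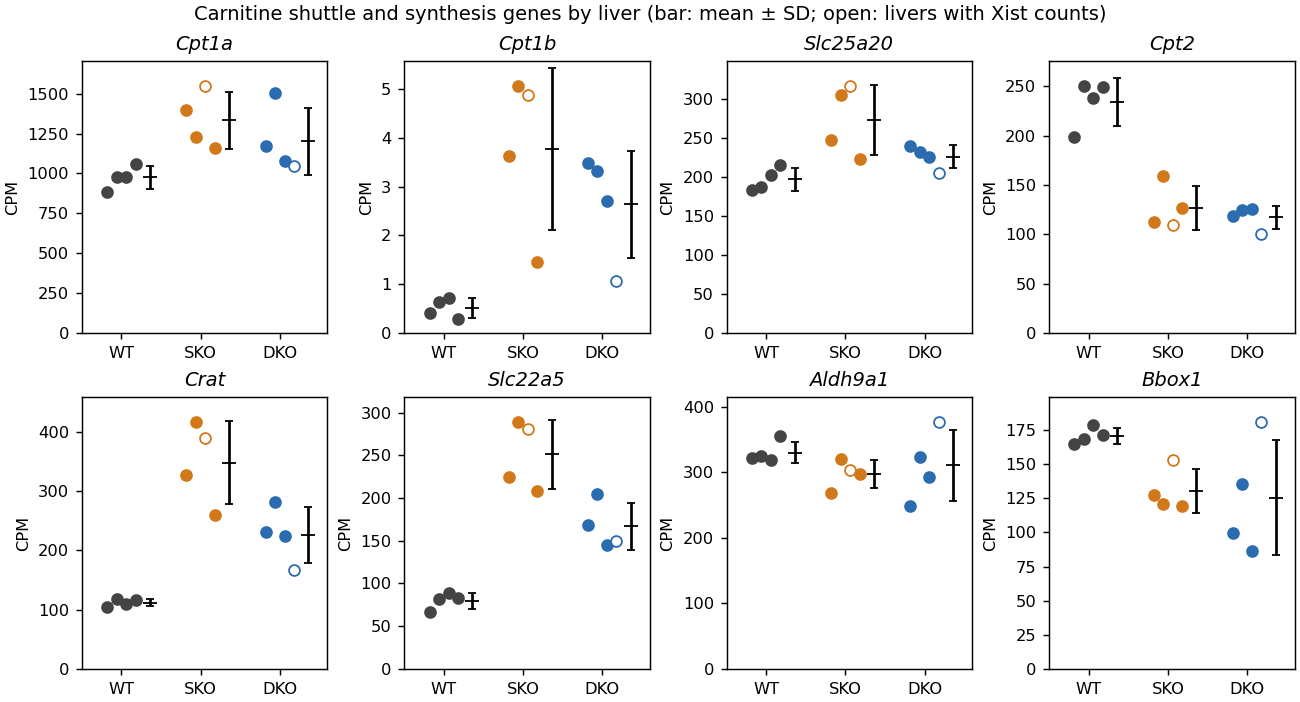
CPM (counts scaled to library size, linear axes from 0) of the 8 genes in each of 12 livers by genotype, with the mean ± SD of 4 livers as a bar and the 2 livers with Xist counts as open circles. Crat and Slc22a5 lie at 105 to 118 and 66.1 to 88.4 CPM in WT livers, below every knockout liver, and all WT livers lie above every knockout liver for Cpt2.

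Cpt2 was the targeted gene in both knockouts. Its levels in replicates 1 to 4 were 199, 250.4, 238 and 249.7 CPM in WT livers, 112, 159, 109 and 127 CPM in SKO livers and 119, 124, 125 and 99.9 CPM in DKO livers. Every knockout liver lay below every WT liver, and the SKO and DKO ranges overlapped. Cpt2 fell by 0.89 on the log2 scale in SKO (SE 0.15, edgeR adjusted p = 0.000826) and by 0.99 in DKO livers (SE 0.13, edgeR adjusted p = 0.00627), so that 0.540 and 0.505 of the WT level remained. The count covers the whole gene, so reads of exons left on a deleted allele or of cells without Cre were not separated. Cpt2 lies at 4:107903981-107923610 on the minus strand of GRCm38.

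At the start of the shuttle, Cpt1a was the most abundant of the 8 genes. Its levels were 884, 979.6, 974 and 1059 CPM in WT livers, 1397, 1225, 1549 and 1157 CPM in SKO livers and 1171, 1507, 1077 and 1049 CPM in DKO livers. All 4 SKO livers were above all WT livers, while DKO replicate 4 was within the WT range. The log2 fold change was 0.45 in SKO against WT (SE 0.14, edgeR adjusted p = 0.0282), with a 95% interval of the fold from 1.11 to 1.68. In DKO against WT it was 0.31 (SE 0.15, edgeR adjusted p = 0.212). The SKO call was lost in 8 of 13 other settings, where the adjusted p reached 0.0989. Among them were the fits without WT replicate 1, 2, 3 or 4 (0.39, 0.44, 0.43 and 0.48 on the log2 scale) and without SKO replicate 1 or 3 (0.43 and 0.37). Without DKO replicate 4 the DKO change was 0.36 and passed (edgeR adjusted p = 0.0490, within a range of 0.0490 to 0.454 over the 13 settings). Cpt1a lies at 19:3322334-3385733 on the plus strand.

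Cpt1b, the form of the enzyme best known from muscle, had few counts in WT livers. Its counts were 8, 10, 11 and 5 in WT livers, 56, 99, 94 and 26 in SKO livers and 72, 54, 53 and 20 in DKO livers. In CPM these were 0.416, 0.633, 0.715 and 0.275 in WT, 3.63, 5.07, 4.88 and 1.46 in SKO, and 3.47, 3.31, 2.69 and 1.06 in DKO livers. Replicate 4 was the lowest liver of its group in each genotype, and even so the lowest knockout liver was above the highest WT liver. Cpt1b rose by 2.89 on the log2 scale in SKO livers (SE 0.45, edgeR adjusted p = 0.000515), with a 95% interval of the fold from 3.76 to 14.6. In DKO livers it rose by 2.38 (SE 0.44, edgeR adjusted p = 0.0167), with an interval from 2.62 to 10.4. The DKO call was lost in 5 of the 13 settings, with log2 changes of 2.17 to 2.49 and an adjusted p of at most 0.0596. These were the fits without DKO replicate 2 or 3 or without WT replicate 1, 2 or 4.

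Markers of other tissues and the neighbours of Cpt1b in the genome were measured beside it. The 6 skeletal muscle markers (Acta1, Ckm, Myh4, Myh1, Tnnt3 and Mb) were each under 1 CPM on average, with summed levels of 0 to 0.316 CPM in WT, 0.0512 to 0.195 in SKO livers and 0.0965 to 0.123 in DKO livers. The 5 adipocyte markers were each under 1 CPM too, with sums of 0.0650 to 0.605, 0.312 to 0.674 and 0 to 0.213 CPM in the same order and 1 marker at 0 throughout. Cpt1b lies at 15:89416405-89425863 on the minus strand. Gm44502, a gene model that covers all 9459 bases of Cpt1b on the same strand, had 0 to 4 counts. Chkb, which encodes choline kinase beta and lies 497 bases away on the same strand, rose as well, with mean levels of 1.62 CPM in WT livers, 4.12 in SKO livers and 4.30 in DKO livers. Its log2 changes were 1.35 (SE 0.32, edgeR adjusted p = 0.00687) and 1.43 (SE 0.31, edgeR adjusted p = 0.0244). The noncoding gene C730034F03Rik, 3726 bases away on the opposite strand, rose by 1.73 and 1.62 on the log2 scale (edgeR adjusted p = 0.000494 and 0.0115). Whether any of these share reads or transcripts with Cpt1b was not tested.

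Slc25a20 encodes the translocase of the inner membrane. Its levels were 183, 187, 202 and 216 CPM in WT livers, 247, 305, 317 and 223 CPM in SKO livers and 240.0, 233, 225 and 206 CPM in DKO livers. The SKO livers were all above the WT livers, though SKO replicate 4 only slightly so, and the DKO range overlapped the WT range. The log2 fold change was 0.47 in SKO (SE 0.14, edgeR adjusted p = 0.0250) and 0.21 in DKO livers (SE 0.12, edgeR adjusted p = 0.258). The SKO call was lost in 7 of the 13 settings, with an adjusted p of up to 0.0877. These included leaving out WT replicate 1, 2, 3 or 4 (0.42, 0.43, 0.47 and 0.50 on the log2 scale) and SKO replicate 2 or 3 (0.41 and 0.39). The gene lies at 9:108662088-108684641 on the plus strand.

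In SKO against WT livers, Crat and Slc22a5 moved most among the genes of the group above 5 CPM. Crat was at 105, 118, 109.6 and 116 CPM in WT livers, 328, 417, 390.0 and 259 CPM in SKO livers and 232, 282, 224 and 166 CPM in DKO livers. The 3 genotypes hardly overlapped, since only the lowest SKO liver lay within the DKO range. Crat rose by 1.63 on the log2 scale in SKO livers (SE 0.16, edgeR adjusted p = 2.2e-05), with a 95% interval of the fold from 2.45 to 3.93. In DKO livers it rose by 1.02 (SE 0.16, edgeR adjusted p = 0.00948), with an interval from 1.59 to 2.59. Both calls held in all 13 settings. Crat lies at 2:30400471-30415813 on the minus strand, 226 bases from Ptpa on the other strand, which rose by 0.73 and 0.65 on the log2 scale (edgeR adjusted p = 0.000382 and 0.0187). Dolpp1 overlaps Crat by 59 bases and had changes of −0.042 and 0.065 (edgeR adjusted p = 0.836 and 0.724), and the noncoding Gm16323, with 1623 overlapping bases, had no counts.

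Slc22a5, which encodes the carnitine uptake transporter OCTN2, was at 66.1, 81.3, 88.4 and 82.8 CPM in WT livers. It was at 225, 289, 281 and 209 CPM in SKO livers and at 168, 205, 145 and 149 CPM in DKO livers. The 3 genotypes did not overlap, with WT lowest, DKO between and SKO highest. Slc22a5 rose by 1.65 on the log2 scale in SKO (SE 0.15, edgeR adjusted p = 1.6e-05) and by 1.08 in DKO livers (SE 0.15, edgeR adjusted p = 0.00717). The 95% intervals of the fold were 2.51 to 3.95 and 1.69 to 2.64, and both calls held in all 13 settings. The gene lies at 11:53864542-53891660 on the minus strand, with no neighbour within 5000 bases.

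Of the genes near the other members, Prkar2a, 4673 bases from Slc25a20 on the same strand, changed by −0.39 in SKO (edgeR adjusted p = 0.0521) and fell by 0.57 on the log2 scale in DKO livers (edgeR adjusted p = 0.0332). Mgst3, 3434 bases from Aldh9a1 on the opposite strand, rose by 0.88 in SKO (edgeR adjusted p = 0.0346) and changed by 0.91 in DKO livers (edgeR adjusted p = 0.244). Tesmin, 3124 bases from Cpt1a, and Czib, 4597 bases from Cpt2, did not pass in either comparison with WT (−1.04 and −0.67 for Tesmin, −0.021 and 0.10 for Czib). The pseudogene Gm50307 near Cpt1a had no counts, and Gm24182 near Aldh9a1 had 0 to 6.

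Neither gene of carnitine synthesis passed the test upward. Aldh9a1, whose product oxidizes an aldehyde of the pathway among other substrates, was at 321, 325, 319 and 355 CPM in WT livers, 268, 319.6, 304 and 297 CPM in SKO livers and 248, 323, 293 and 377 CPM in DKO livers. The 3 ranges overlapped. Its log2 fold change was −0.15 in SKO (SE 0.11, edgeR adjusted p = 0.341, 95% interval −0.41 to 0.097) and −0.075 in DKO livers (SE 0.15, edgeR adjusted p = 0.776, interval −0.41 to 0.26). Aldh9a1 lies at 1:167349991-167368532 on the plus strand.

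Bbox1, which makes carnitine in the last step, was at 165, 168, 179 and 171 CPM in WT livers, 128, 121, 153 and 119 CPM in SKO livers and 99.4, 135, 86.3 and 181 CPM in DKO livers. The SKO livers were all below the WT livers, and in DKO livers replicates 1 to 3 were below them while replicate 4 was above them. The log2 fold change was −0.39 in SKO (SE 0.12, edgeR adjusted p = 0.0258) and −0.43 in DKO livers (SE 0.21, edgeR adjusted p = 0.214). The SKO call was lost in 8 of the 13 settings, with an adjusted p of up to 0.149. These included the fits without SKO replicate 1 or 4 (−0.38 and −0.35) and without WT replicate 2, 3 or 4 (−0.41, −0.38 and −0.40). Without DKO replicate 4 the DKO change was −0.67 and passed (edgeR adjusted p = 0.00363, within a range of 0.00363 to 0.426 over the 13 settings). Bbox1 lies at 2:110262697-110314560 on the minus strand, and the RefSeq start of its window lies inside this span, as that of Cpt1a does inside its own.

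DKO replicate 4 lay at the edge of its group for most of these genes. It was the lowest DKO liver for 5 of the 8 genes, the highest for 2 and neither for Slc22a5. With only the livers that had Y-linked counts, 6 of the 8 genes passed in DKO against WT, where 5253 genes in all passed in place of 1510. The log2 changes of Crat, Slc22a5, Cpt1b and Cpt2 were 1.14, 1.12, 2.64 and −0.92 (edgeR adjusted p = 2.09e-05, 9.94e-05, 0.000181 and 0.000102). Over the 13 settings the adjusted p of these 4 genes ranged from 2.87e-07 to 0.0433, 8.53e-09 to 0.0358, 3.47e-05 to 0.0596 and 1.11e-11 to 0.0317. In SKO against WT the same restriction left out SKO replicate 3, and 5 of the 8 passed, with 4711 genes in all in place of 4576. The log2 changes of Crat, Slc22a5, Cpt1b, Cpt2 and Bbox1 were then 1.58, 1.60, 2.74, −0.82 and −0.48, while Cpt1a and Slc25a20 were at 0.37 and 0.39 and no longer passed.

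The comparison of DKO with SKO livers addressed whether the added Atf3 knockout alters these genes, in livers of which 3 of the 4 labelled DKO held more Atf3 counts than any WT liver. None of the 8 passed the threshold in edgeR or in DESeq2, and 0.0209% of the 14363 genes tested passed in edgeR. At an unadjusted p under 0.05 there were 2 of the 8, Crat and Slc22a5, where 6.49% of all genes tested reached that level. Slc22a5 was lower in every DKO than in every SKO liver, which 1.86% of all genes were, with a log2 difference of −0.57 (95% interval −0.96 to −0.18, edgeR adjusted p = 0.557). Crat differed by −0.61 (95% interval −1.07 to −0.15, edgeR adjusted p = 0.628). With only the livers that had Y-linked counts these differences were −0.47 and −0.44 (edgeR adjusted p = 0.649 and 0.724). Over the 14 settings the adjusted p stayed between 0.154 and 0.960 for Slc22a5 and between 0.262 and 0.974 for Crat, and neither passed in any of them.

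For the other 6 genes the intervals of the difference between DKO and SKO livers included 0. They ran from −0.55 to 0.29 for Cpt1a, −1.47 to 0.46 for Cpt1b, −0.62 to 0.11 for Slc25a20, −0.45 to 0.26 for Cpt2, −0.30 to 0.47 for Aldh9a1 and −0.55 to 0.50 for Bbox1, all on the log2 scale. Differences inside these bounds cannot be told from none at this depth and number of livers. By sign alone, 7 of the 8 differences were negative, with a median of −0.19 beside 0.0086 over all genes tested. The share of negative differences over all genes was not counted. Of the negative ones, Bbox1 (−0.029) and Cpt2 (−0.092) were near 0 and turned positive in 3 and 1 of the 14 settings.

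**Figure D2:**
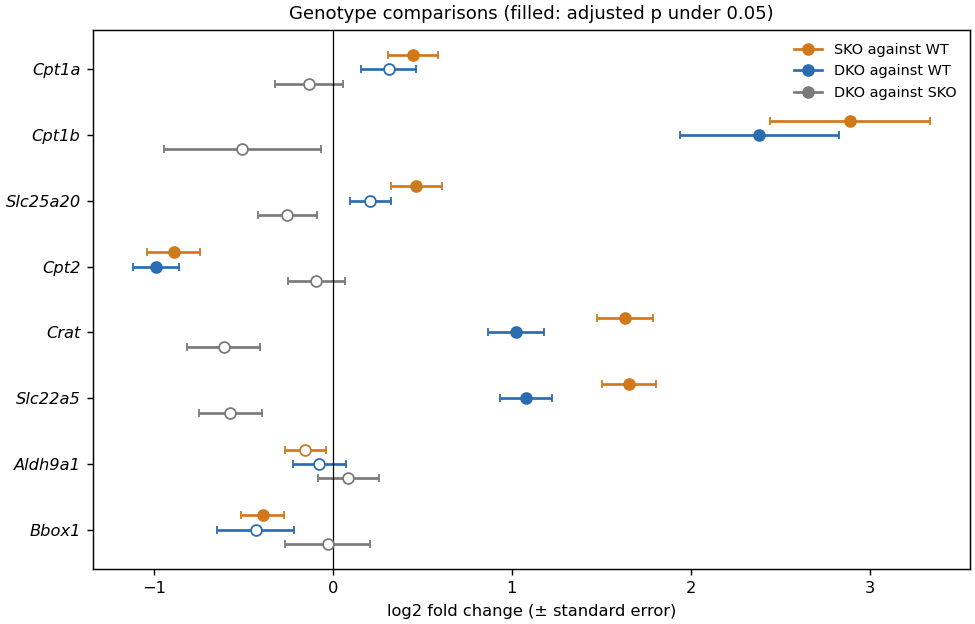
Log2 fold change ± SE from edgeR for the 8 genes in SKO against WT (orange), DKO against WT (blue) and DKO against SKO livers (grey), with 4 livers per genotype. Filled circles mark an adjusted p under 0.05, which 7, 4 and 0 of the 8 genes reached, and Crat and Slc22a5 lie at nearly the same place in each comparison.

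Levels of different genes were compared as CPM per kb of the gene length given with the counts. In WT livers Cpt1a was highest at 127 ± 9.35 CPM per kb (mean ± SD, n = 4), followed by Cpt2 at 97.9 ± 10.2 and Aldh9a1 at 97.5 ± 4.91, whose ranges overlapped. Slc25a20 at 40.7 ± 3.09 and Bbox1 at 38.8 ± 1.34 overlapped each other, as did Slc22a5 at 25.9 ± 3.11 and Crat at 20.8 ± 1.09. Cpt1b was last at 0.151 ± 0.0597.

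In SKO livers the order changed in its middle. Cpt1a stayed first at 174 ± 23.1 CPM per kb, and Aldh9a1 at 87.8 ± 6.38 came next. Slc22a5 at 81.7 ± 13.1, Crat at 64.7 ± 13.1, Slc25a20 at 56.4 ± 9.33 and Cpt2 at 52.9 ± 9.50 followed, each overlapping its neighbour, Aldh9a1 included. Bbox1 at 29.6 ± 3.58 and Cpt1b at 1.12 ± 0.493 came last without overlap. In DKO livers Cpt1a at 157 ± 27.5 and Aldh9a1 at 91.7 ± 15.9 stood apart from each other and from the rest. Slc22a5 at 54.3 ± 8.96, Cpt2 at 49.0 ± 4.95, Slc25a20 at 46.6 ± 3.04, Crat at 42.0 ± 8.82 and Bbox1 at 28.5 ± 9.63 overlapped from neighbour to neighbour, above Cpt1b at 0.781 ± 0.326. Slc22a5 was at rank 6 of these genes in WT livers and at rank 3 in both knockouts. Among the genes it passed was Cpt2, the targeted gene, so part of this move is built in.

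**Figure D3:**
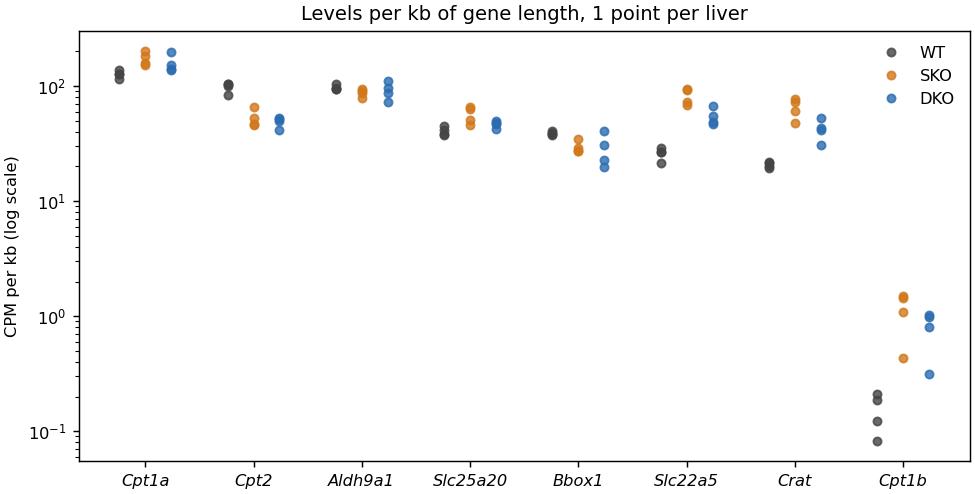
CPM per kb of gene length (log axis) of the 8 genes, with 1 point per liver and genotypes by colour, ordered by the WT mean. Cpt1a is highest in each genotype and Cpt1b lowest. The points of Slc22a5 and Crat lie higher in the knockouts than in WT livers, while those of Cpt2, the targeted gene, lie lower. In SKO livers every Slc22a5 point lies above every Cpt2 point, to which the fall of the targeted gene contributes.

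A pair of ratios between shuttle genes was computed in each liver as a description. The ratio of Cpt1a to Cpt2 counts was 3.91 to 4.45 in WT livers (mean 4.18 ± 0.228 SD, n = 4), 7.73 to 14.2 in SKO livers (10.9 ± 2.99) and 8.58 to 12.1 in DKO livers (10.3 ± 1.47). Both knockouts were above the WT range and overlapped each other, and the fall of the targeted gene is built into this ratio. Cpt1b made up 0.0588 to 0.166% of the summed CPM per kb of Cpt1a and Cpt1b in WT livers (mean 0.119 ± 0.0474%, n = 4). The share was 0.285 to 0.928% in SKO livers (0.627 ± 0.268%) and 0.230 to 0.668% in DKO livers (0.489 ± 0.187%). Even at its highest, Cpt1b remained under 1% of this sum as counted. How reads in the overlap of Cpt1b with Gm44502 were counted is not known, so the true share may differ.

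Genes with the most similar pattern were sought by the root mean square difference between log2 CPM values over the 12 livers, each gene centred on its own mean. Among 9777 genes, Slc22a5 was the nearest to Crat and Crat the nearest to Slc22a5, at a distance of 0.137, while the root mean square of their own patterns about the mean was 0.700 and 0.707. The next gene was farther off for both, Pnpla2 at 0.209 for Crat and Tmem82 at 0.223 for Slc22a5. Pnpla2, which encodes adipose triglyceride lipase, had means of 187, 604.5 and 343 CPM in WT, SKO and DKO livers. The livers share genotypes, so genes that differ between genotypes come out as alike.

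**Figure D4:**
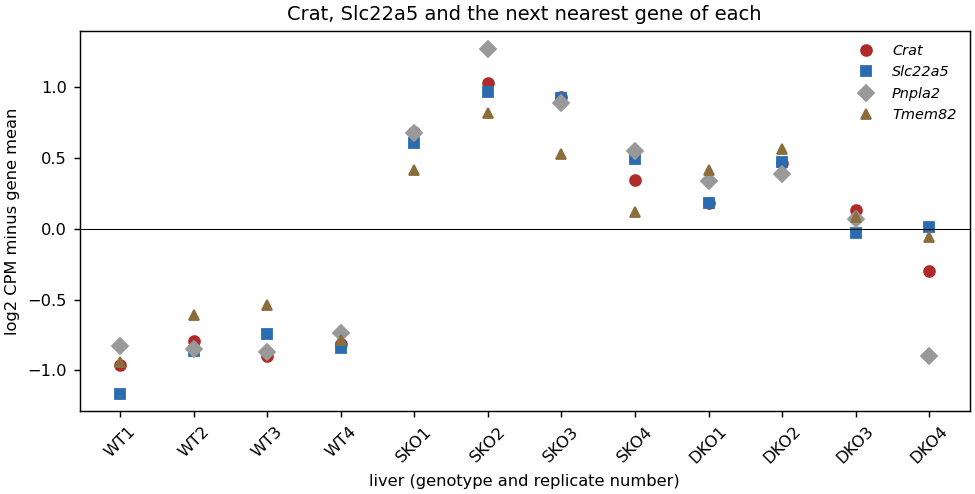
Log2 CPM minus each gene's own mean over the 12 livers (linear axis), with 1 point per liver for Crat, Slc22a5, Pnpla2 and Tmem82. Crat and Slc22a5 lie close together in most livers, with a root mean square distance of 0.137, and Pnpla2 departs from both in DKO replicate 4.

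For the other genes the nearest patterns were those of Eef2 and Atp5g2 for Slc25a20 (distances 0.0890 and 0.104) and Snap47 and Phyh for Cpt2 (0.184 and 0.198). For Aldh9a1 they were Sptlc1 and Ciao1 (0.0649 and 0.0849), and for Bbox1 they were Canx and Lman2 (0.103 and 0.126). The root mean square of each gene's own pattern was 0.235 for Slc25a20, 0.478 for Cpt2, 0.155 for Aldh9a1 and 0.333 for Bbox1. A gene that varies little has small distances, so distances of different genes do not rank the matches. Phyh encodes an enzyme of phytanic acid oxidation in peroxisomes, and its mean levels were 2148 CPM in WT livers, 1128 in SKO livers and 1203 in DKO livers. Cpt1b was too low for this measure, which was limited to genes of at least 5 CPM on average.

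A list of 17 other genes of the pathway was followed alongside, of which 13 were tested. The brain form Cpt1c had 3 to 15 counts, the muscle and brain synthetase Acsl6 had 0 to 4, and the carnitine transporters Slc22a16 and Slc6a14 had none. In SKO against WT livers 4 of the 13 rose and 1 fell, where 16.7 and 15.4% of all genes tested did so. The 5 called in either direction are a share near the 32.1% of all genes. Their median log2 fold change was 0.37, beside 0.031 over all genes. In DKO against WT livers 2 rose and 1 fell, where 6.06 and 4.39% of all genes did so, with a median of 0.19 beside 0.030. None passed in DKO against SKO livers, in edgeR or DESeq2, where the median was −0.068 and 1 gene, Acsl4, reached an unadjusted p under 0.05, as 6.49% of all genes did.

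Enzymes of malonyl-CoA, the inhibitor of CPT1, held the largest rise of the list. Acacb encodes acetyl-CoA carboxylase 2, which makes malonyl-CoA at mitochondria, and was at 51.5, 58.5, 45.5 and 59.9 CPM in WT livers, 291, 264, 279 and 196 CPM in SKO livers and 244, 222, 182 and 112 CPM in DKO livers. The knockout livers were all above the WT livers, and DKO replicate 4 was the lowest of them. Acacb rose by 2.25 on the log2 scale in SKO (SE 0.16, edgeR adjusted p = 2.99e-06) and by 1.83 in DKO livers (SE 0.23, edgeR adjusted p = 0.00577). Mlycd encodes malonyl-CoA decarboxylase, which removes malonyl-CoA. It was at 97.9, 115, 107 and 119 CPM in WT, 171, 272, 154 and 168 CPM in SKO and 197, 205, 203 and 164 CPM in DKO livers, again without overlap with WT. Mlycd rose by 0.80 (SE 0.18, edgeR adjusted p = 0.00521) and 0.82 (SE 0.12, edgeR adjusted p = 0.00896). Acaca, the cytosolic carboxylase gene of lipogenesis, changed by −0.40 in SKO livers and did not pass (SE 0.15, edgeR adjusted p = 0.0637).

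Among the transporters, Slc22a4, a relative of Slc22a5 whose product OCTN1 mainly carries ergothioneine, moved in the other direction. It was at 8.58, 7.97, 8.00 and 8.30 CPM in WT livers, 5.32, 4.14, 2.08 and 6.51 CPM in SKO livers and 4.87, 3.74, 4.73 and 3.25 CPM in DKO livers. All knockout livers were below all WT livers. Slc22a4 fell by 0.87 on the log2 scale in SKO (SE 0.28, edgeR adjusted p = 0.0355) and by 0.97 in DKO livers (SE 0.18, edgeR adjusted p = 0.0174). The SKO call was lost without WT replicate 1, 2, 3 or 4 or SKO replicate 2 (−0.87, −0.90, −0.90, −0.88 and −0.83), and the DKO call without WT replicate 1, 2 or 4 or DKO replicate 2 (−0.97, −0.99, −0.97 and −0.92).

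Long-chain acyl-CoA synthetases supply the acyl-CoA that CPT1 uses. Acsl4, which prefers arachidonic acid, was at 50.7 to 64.8 CPM in WT, 70.1 to 106 in SKO livers and 47.4 to 71.9 in DKO livers. It rose by 0.57 on the log2 scale in SKO (SE 0.15, edgeR adjusted p = 0.0112) and changed by 0.086 in DKO against WT (SE 0.14, edgeR adjusted p = 0.726). The difference of DKO from SKO livers was −0.48 (SE 0.18, edgeR adjusted p = 0.695). Acsl5 was at 174 to 231 CPM in WT, 259 to 308 in SKO livers and 217 to 280.0 in DKO livers. It rose by 0.44 in SKO (SE 0.13, edgeR adjusted p = 0.0182), a call lost without WT replicate 1, 2 or 3 (0.35, 0.45 and 0.43), and changed by 0.28 in DKO livers (SE 0.13, edgeR adjusted p = 0.192). Acsl1, the main liver form, did not pass in SKO (0.26, edgeR adjusted p = 0.389) or DKO livers (0.19, edgeR adjusted p = 0.597).

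The transcript of Ppara was at 178 to 259.7 CPM in WT, 168 to 329 in SKO livers and 134 to 228 in DKO livers, with overlapping ranges. Its log2 changes were 0.23 in SKO (SE 0.22, edgeR adjusted p = 0.476) and −0.26 in DKO livers (SE 0.19, edgeR adjusted p = 0.406). The peroxisomal acyltransferase gene Crot, whose product passes shortened fatty acids to carnitine, changed by 0.37 in SKO (SE 0.21, edgeR adjusted p = 0.204) and by 0.55 in DKO livers (SE 0.22, edgeR adjusted p = 0.132), and neither passed.

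**Figure D5:**
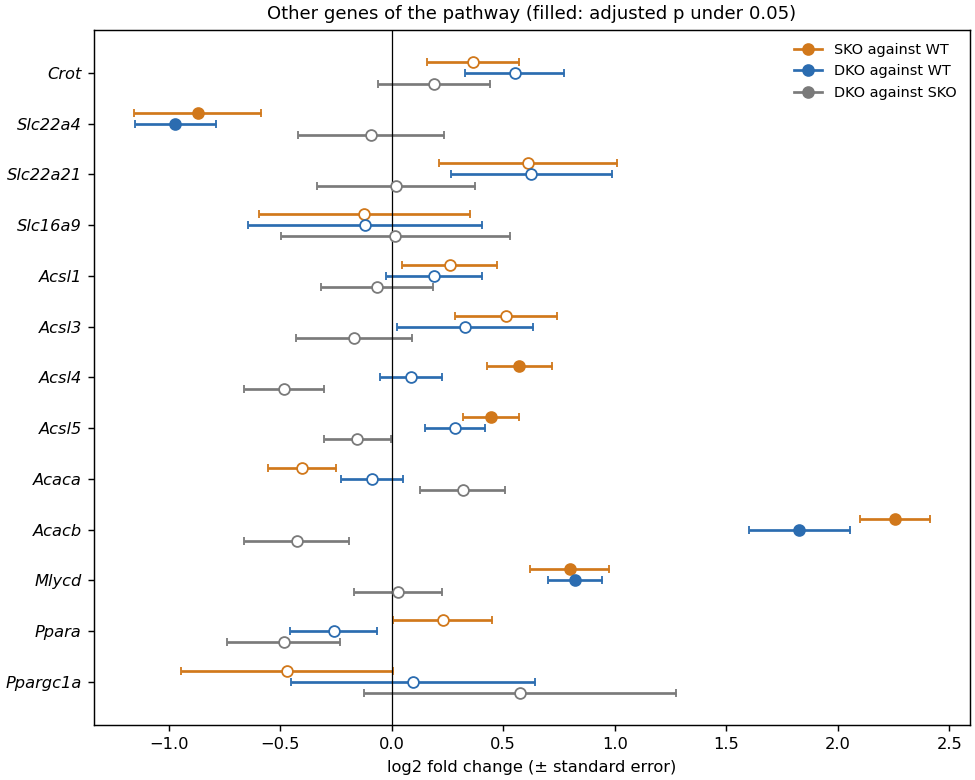
Log2 fold change ± SE from edgeR for the 13 tested genes of the wider pathway in SKO against WT (orange), DKO against WT (blue) and DKO against SKO livers (grey), with 4 livers per genotype. Filled circles mark an adjusted p under 0.05, which Acacb and Mlycd reached above 0 and Slc22a4 below 0 in both comparisons with WT, and Acsl4 and Acsl5 in SKO livers alone.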

How the data were processed

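RNA-seq counts of 12 livers were used, 4 per genotype as labelled, and no label gives a batch. The values used are counts per Ensembl gene as the authors deposited them, not normalized. The submitters' processing notes name HISAT2 with GRCm38 (mm10), and the counting program and its strand setting are not given in the sources used here. The coordinates in the count table differ from GRCm38 for all 8 genes, so positions are from GENCODE on GRCm38, and lengths from the count table. A deposited FPKM table was not used, nor were the authors' tables of values scaled by size factors, fold changes and p-values.

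No libraries of a genotype were copies of each other (chi-square at least 20.6 per degree of freedom). This value was 220 to 261 between DKO replicate 4 and the other DKO livers, and 31.1 to 37.4 among those others. Tests used edgeR 4.0.16 in R 4.3.3 (TMM and filterByExpr within 8 livers, quasi-likelihood, two-sided, Benjamini-Hochberg), checked on simulated data. Nothing says whether the livers of a genotype came from separate litters, so p-values measure the spread between these samples. Pattern distances used log2 CPM with a prior count of 2. Intervals are at 95%, and floors cover counting error only. The alternatives were DESeq2 1.42.0, RLE factors, no filter, 1 fit over 12 livers, a replicate block, each liver left out, and livers with Y-linked counts only, which against WT equals leaving out 1 liver and is counted once.

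The genes and lists were chosen with earlier results of these data known. Named were the members, genes of the wider pathway past the threshold or not tested and up to 3 others, the 2 nearest patterns, genes within 5000 bases, label checks and markers. Acaca was named beside these after its values were seen. The nearest patterns of Cpt1a are not reported here.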

Additional observations from a re-analysis of the deposited data

Results flagged for a closer look

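Within groups of 4 livers, a value was singled out where the gap between the highest or lowest liver and its nearest neighbour exceeded Dixon's 95% critical value as a part of the group's range. Of 63 groups of livers over the genes tested, 4 had such a liver, where chance gives about 3.15. Aldh9a1 was at 355 CPM in WT replicate 4, against 319 to 325 in the other WT livers. Crot was at 1593 CPM in DKO replicate 2, against 909 to 1013 in the other DKO livers. Acsl1 was at 2866 CPM in SKO replicate 1, against 1668 to 1738 in the other SKO livers. Mlycd was at 272 CPM in SKO replicate 2, against 154 to 171 in the other SKO livers.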

How the results depend on the processing

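In SKO against WT the calls of Cpt2, Crat, Slc22a5 and Cpt1b held in all 13 distinct other settings, and in DKO against WT those of Cpt2, Crat and Slc22a5. With a replicate block, the numbers on the labels taken as pairs, 4 of the 8 genes passed in SKO against WT in place of 7, with 4111 genes in all in place of 4576. The block left 691 genes past the threshold in DKO against WT in place of 1510, and 0 in DKO against SKO in place of 3. Correlations of deviations between same-numbered livers ran from −0.36 to 0.10. Deviations from a mean of 4 livers depend on each other, so these values show no pairing by number but cannot exclude one. The result with the block is given only as a setting. Leaving out 1 liver gave 4 to 6 of the 8 genes and 3617 to 4711 genes in all in SKO against WT, and 3 to 6 and 244 to 5253 in DKO against WT. The 5253 was without DKO replicate 4, which is also the set of livers with Y-linked counts, and the 244 without WT replicate 2. In DKO against SKO it gave 0 of the 8 and 0 to 15 genes in all, with 21 in the livers with Y-linked counts alone. DESeq2 gave 2635 genes in DKO against WT and 97 in DKO against SKO, and no filter gave 35 in the latter. The cause was not tested in any of these.

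Small changes turned in sign. With 1 liver left out, Aldh9a1 in DKO against WT ran from −0.19 to 0.017, the latter without DKO replicate 1. In DKO against SKO, Bbox1 ran from −0.28 to 0.11 and was positive without DKO replicate 1 (0.069), DKO replicate 3 (0.11) or SKO replicate 3 (0.060). There Aldh9a1 ran from −0.038 without DKO replicate 4 to 0.18, with −0.025 in the livers with Y-linked counts, and Cpt2 from −0.16 to 0.032, the latter without SKO replicate 2. With 1 liver left out, the mean ratio of Cpt1a to Cpt2 stayed at 4.08 to 4.26 in WT livers, at 9.77 to 11.9 in SKO livers and at 9.65 to 10.8 in DKO livers. The mean share of Cpt1b stayed at 0.104 to 0.140%, 0.527 to 0.741% and 0.430 to 0.576%. Counts of 5 to 11 in WT livers limit the precision of the Cpt1b fold.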
